A study of Drosophila melanogaster with 6 samples.

Results

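The genes described here encode the nuclear part of the mitochondrial respiratory chain (complexes I to IV) and of ATP synthase (complex V). They were taken by name: every gene whose platform symbol starts with ND-, Sdh, UQCR-, COX and a digit, or ATPsyn was included. Each gene was read from the probe set with the highest mean signal among those that name it alone. This gave 73 of the 11981 genes that could be named singly, of which 51 are subunits, 21 are paralogs (symbols ending in L, or in L and a digit) and 1 is an assembly factor. Complex I contributed 32 genes, complex II 7, complex III 6, complex IV 14 and complex V 14. The genes ATPsynG, COX6B and ND-AGGG share their probe sets with other genes and were not used here. RNA came from whole Drosophila melanogaster embryos, 3 arrays of wild type and 3 arrays of trh null embryos. The trh gene encodes a transcription factor without which the tracheal tubes, the air supply of the fly, do not form. Embryos of both genotypes were collected for 8 h, aged for 11 h more and run through a COPAS biosorter, and the null embryos were picked out because they lacked the GFP of the balancer chromosome. The labels give stages 11 to 16, but the description of the wild type samples ends at stage 17. Nothing in the labels says whether arrays of a genotype came from separate collections, and the p-values below reflect how these arrays vary among themselves, a spread that can be technical.

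The respiratory chain sits in the inner mitochondrial membrane. Complexes I and II pass electrons from NADH and succinate to ubiquinone, complex III passes them on to cytochrome c, and complex IV hands them to oxygen. Complexes I, III and IV pump protons as they do so, and ATP synthase lets the protons back through its membrane ring to drive ATP production. Most subunits are encoded in the nucleus and used in every tissue, while many fly paralogs are known for use in the testis.

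Over the whole table, 2219 of 18769 probe sets, or 11.8%, passed an adjusted p of 0.05 (limma, Benjamini-Hochberg). The per-array median log2 signal lay between 6.16 and 6.22. Wild type replicate 2 stood apart: it correlated at 0.979 and 0.976 with the other wild type arrays, which correlated with each other at 0.994. Counts and medians are therefore also given without this array where leaving it out changes them. No probe set names trh alone, so its transcript was not analysed here. Of 9 tracheal markers, 5 fell in trh null embryos and 1 rose, against 7.31% and 6.79% of all genes. Without wild type replicate 2 the counts were 6 and 1, against 14.8% and 17.4% of all genes. Markers of muscle and neurons, as whole embryos hold, were measured as well and are given at the end.

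Few members of the respiratory chain and ATP synthase passed, but most subunits had a difference below 0. Under the naming rule the median difference (trh null minus wild type, log2) was lowest for the subunits of complex II (-0.49) and complex I (-0.24). Without wild type replicate 2 it was -0.36 for complex II, -0.12 for complex I and -0.11 for complex IV. Subunits of complexes III to V outside the rule, given below, had a median of -0.40, or -0.28 without that array. Of the 73 genes, 3 fell and 1 rose in trh null embryos, against 7.31% of all genes that fell and 6.79% that rose. The subunits ND-B12 and ND-B14 of complex I and SdhD of complex II fell, and UQCR-11 of complex III rose. The share that passed was 5.48% of the members and 7.84% of the subunits, below the 14.1% of all genes that passed in either direction. The median difference (trh null minus wild type, log2) was -0.13 over the 73 genes, -0.15 over the subunits and -0.02 over the paralogs, against 0.00 over all genes. The difference was below 0 for 42 of the 51 subunits, compared with 49.9% of all genes. In 26 subunits all trh null arrays lay below all wild type arrays and in 2 all lay above, against 19.4% and 18.8% of all genes. The 95% interval of the difference stayed within a 1.5-fold change in both directions for 54 of the 73 members. That is 74.0%, against 53.2% of all genes. It did so for 34 of the 51 subunits, or 66.7%, and for 20 of the 21 paralogs. Among the 27 complex I subunits it did so for 15, or 55.6%. Of the paralogs 20 lay below the median signal of all probe sets, where a change is understated. In RNA from whole embryos, fewer cells of a type and less RNA per cell cannot be told apart.

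**Figure D1:**
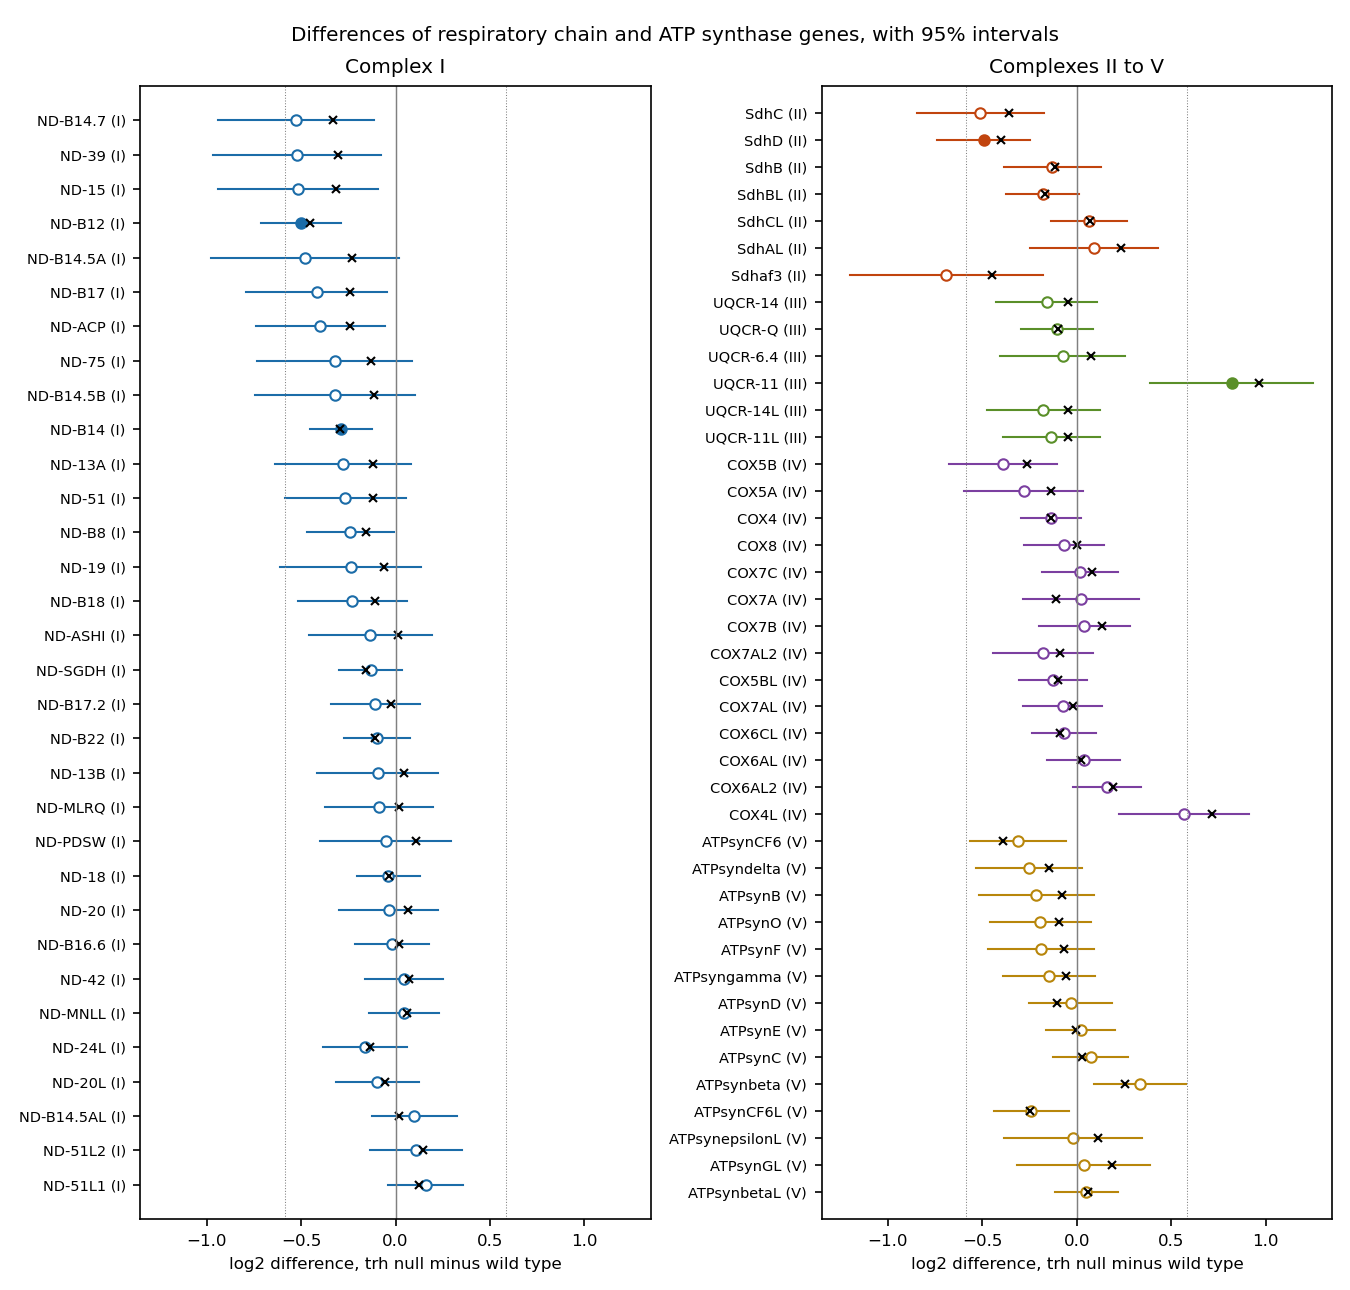
Difference of mean log2 signal, trh null minus wild type, for each of the 73 genes by complex (I to V, colours). Circles are estimates from all 6 arrays with 95% intervals, filled where the adjusted p was below 0.05. Crosses are estimates without wild type replicate 2, and dotted lines mark 1.5-fold. Most complex I and II subunits lie left of 0, and only ND-B12, ND-B14, SdhD and UQCR-11 are filled.

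A large part of the wild type spread came from 1 array. Wild type replicate 2 was the highest of all 6 arrays for 36 of the 51 subunits, compared with 35.2% of all genes. Relative to the mean of the other wild type arrays it was higher by a median of 0.31 over the subunits and 0.42 over the complex I subunits (log2), against 0.08 over all genes. The trh null arrays lay close together, with a median SD of 0.04 over the subunits against 0.19 in wild type. Over all genes the median SD was 0.08 in trh null embryos and 0.20 in wild type. Without wild type replicate 2 the median difference was -0.07 over all members, -0.11 over the subunits, 0.02 over the paralogs and 0.03 over all genes. The difference was below 0 for 36 of 51 subunits, against 5503 of all 11981 genes. At an adjusted p of 0.05, 13 members were lower and 2 higher, and of the subunits 12 were lower and 1 higher. Those counts stand against 14.8% of all genes lower and 17.4% higher without that array, 32.2% in either direction. All 4 members that passed with all arrays also passed without it, in the same direction. So did all 1690 genes that passed with all arrays, so this does not set the 4 members apart.

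**Figure D2:**
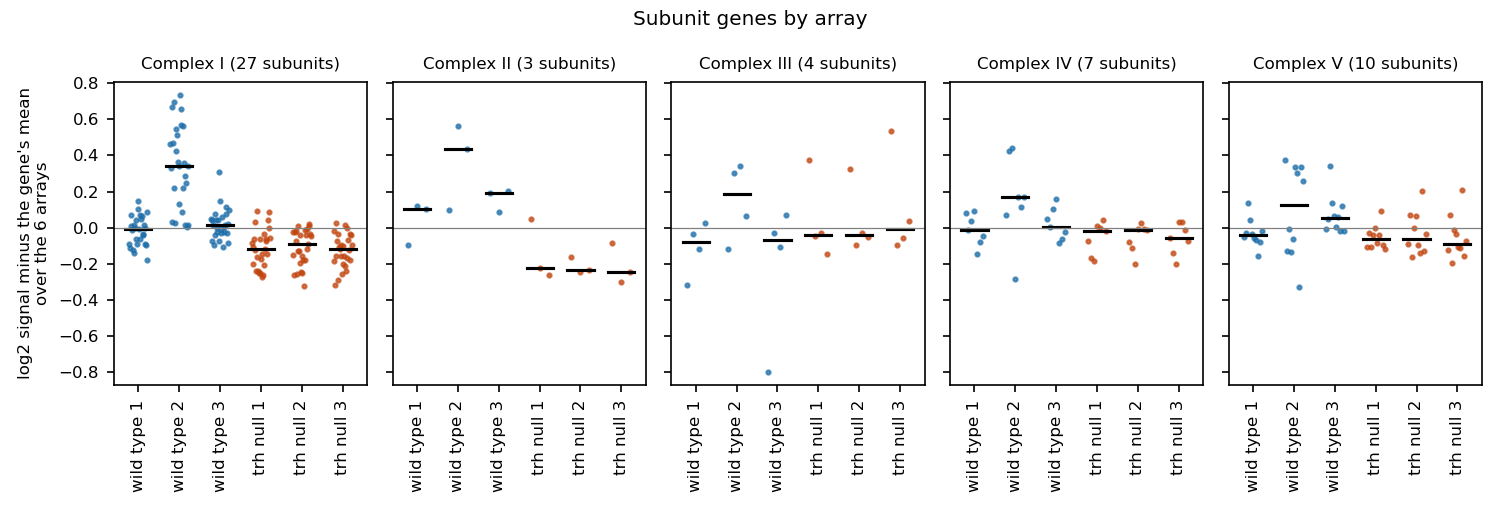
Each point is 1 subunit on 1 array, as log2 signal minus that gene's mean over the 6 arrays, in 5 panels for complexes I to V. Bars are medians per array. For complex I the median on wild type replicate 2 is 0.34, while the other wild type arrays are at -0.01 and 0.01 and the trh null arrays lie between -0.12 and -0.09.

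Complex I, NADH dehydrogenase, was represented by 27 subunits and 5 paralogs. Of the subunits 2 fell and none rose in trh null embryos, and 8 were lower with none higher at an unadjusted p of 0.05. Of all genes 15.3% were lower and 15.1% higher at that unadjusted p. The median difference of these subunits was -0.24, and -0.12 without wild type replicate 2. The difference was below 0 for 25 of the 27 subunits, against 49.9% of all genes. Without that array it was below 0 for 19, against 5503 of all 11981 genes. In 15 subunits the trh null arrays all lay below the wild type arrays, and in none above, against 19.4% and 18.8% of all genes.

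ND-B12, whose mammalian counterpart is a small accessory subunit of the membrane arm, had a log2 signal of 7.56, 7.80 and 7.76 on the wild type arrays and 7.21, 7.22 and 7.20 on the trh null arrays. The trh null arrays were all lower and nearly equal, and the groups did not overlap. ND-B12 fell by 0.50 on the log2 scale (SE 0.09, adjusted p = 0.0177), a 1.41-fold change. The call was lost with any single trh null array left out (adjusted p 0.0809 to 0.0915) and just lost without wild type replicate 3 (0.0501).

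ND-B14, whose counterpart is an accessory subunit at the joint of the matrix and membrane arms, had a log2 signal of 11.62, 11.60 and 11.62 in wild type and 11.30, 11.32 and 11.37 in trh null embryos. Here wild type replicate 2 lay with the other wild type arrays, and the groups did not overlap. ND-B14 fell by 0.29 (SE 0.07, adjusted p = 0.0436), which is 1.22-fold. This call was the least stable of the members' calls: it was lost with any single trh null array left out (0.141 to 0.170), without wild type replicate 1 (0.102) and without wild type replicate 3 (0.0925).

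The largest complex I differences that did not pass belonged to ND-B14.7 and ND-39. ND-B14.7, an accessory subunit of the membrane arm, had a log2 signal of 11.49, 12.07 and 11.48 in wild type and 11.16, 11.10 and 11.21 in trh null embryos. Wild type replicate 2 was the highest by far, yet all trh null arrays lay below all wild type arrays. Its difference was -0.53 (SE 0.17, adjusted p = 0.105), and -0.33 (adjusted p = 0.0174) without that array. ND-39, an accessory subunit near the ubiquinone site, had a log2 signal of 11.65, 12.33 and 11.71 in wild type and 11.40, 11.38 and 11.35 in trh null embryos. The same array was high, and the groups again did not overlap. The difference of ND-39 was -0.52 (SE 0.18, adjusted p = 0.131), and -0.31 (adjusted p = 0.0197) without wild type replicate 2. In both genes leaving out the highest wild type array made the difference smaller and the adjusted p lower.

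In the fit without wild type replicate 2, 8 complex I members were lower and none higher, against 14.8% and 17.4% of all genes. Besides the genes above these were ND-15, ND-B14.5A, ND-B17 and the acyl carrier protein ND-ACP, with differences of -0.31, -0.23, -0.24 and -0.24. With all arrays their differences were -0.52, -0.48, -0.42 and -0.40, and none of them passed. The further probe sets of ND-ACP (-0.26 and -0.31) and ND-B17 (-0.26) had the same sign as the ones used and did not pass.

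By the place of the mammalian counterparts, differences below 0 appeared in every module of complex I. The NADH-oxidising N module had a median difference of -0.25 over 6 subunits, none of which passed, with 1 lower at an unadjusted p of 0.05. The ubiquinone-binding Q module had -0.29 over 5 subunits, 1 of which fell. The proximal membrane arm had -0.32 over 7 subunits with none passing and 3 lower at an unadjusted p of 0.05, and the distal arm had -0.13 over 8 with 1 that fell. Of all genes 7.31% fell, and 15.3% were lower at an unadjusted p of 0.05. Without wild type replicate 2 the medians of these modules were -0.12, -0.23, -0.12 and -0.11. ND-75 and ND-51, counterparts of core subunits of the N module, had differences of -0.32 and -0.27 with adjusted p of 0.285 and 0.261.

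Several complex I subunits had nearly equal signal in both genotypes. ND-42, an accessory subunit of the membrane arm, had a difference of 0.05 with a 95% interval from -0.16 to 0.25. ND-MNLL, of the distal arm, had a difference of 0.05 with an interval from -0.14 to 0.23. ND-18, of the N module, had -0.04 with an interval from -0.21 to 0.13. For these genes a change of 1.5-fold lay outside the interval.

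ND-MLRQ had the highest signal of the complex I probe sets, although signals of different probe sets do not rank transcript amounts. Its mammalian counterpart is now placed in complex IV. It had a log2 signal of 13.71, 14.05 and 13.77 in wild type and 13.84, 13.81 and 13.62 in trh null embryos, and the groups overlapped. Its difference was -0.09 (adjusted p = 0.703). ND-B8 had the lowest signal, with 4.63, 4.92 and 4.71 in wild type and 4.48, 4.54 and 4.51 in trh null embryos. It was the 1 subunit of any complex below the median signal of all probe sets, 6.21, where a change is understated. Its groups did not overlap, and its difference of -0.24 did not pass (adjusted p = 0.175).

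Complex II, succinate dehydrogenase, links the respiratory chain to the tricarboxylic acid cycle. Its members were 3 subunits, 3 paralogs and the assembly factor Sdhaf3. The flavoprotein subunit was not analysed here. SdhD fell, and the other membrane anchor, SdhC, had a difference of like size that did not pass. The median over the 3 subunits was -0.49, and -0.36 without wild type replicate 2.

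SdhD had a log2 signal of 11.06, 11.39 and 11.15 in wild type and 10.69, 10.72 and 10.70 in trh null embryos. All trh null arrays were lower and nearly equal. SdhD fell by 0.49 (SE 0.10, adjusted p = 0.0285), a 1.41-fold change, and had a difference of -0.40 without wild type replicate 2 (adjusted p = 0.00831). The call was lost with any single trh null array left out (0.113 to 0.121) and without wild type replicate 3 (0.0594).

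SdhC had a log2 signal of 11.98, 12.42 and 11.95 in wild type and 11.63, 11.61 and 11.56 in trh null embryos. All trh null arrays were lower, and wild type replicate 2 was the highest. Its difference was -0.51 (SE 0.14, adjusted p = 0.0659), and -0.36 (adjusted p = 0.0115) without that array. SdhB, the iron-sulfur subunit that receives electrons from the flavoprotein, had 10.85, 11.04 and 11.14 in wild type and 10.99, 10.78 and 10.86 in trh null embryos. For SdhB the groups overlapped, and the difference of -0.13 did not pass (adjusted p = 0.488).

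Sdhaf3, an assembly factor for the iron-sulfur subunit, had a log2 signal of 8.36, 9.17 and 8.53 in wild type and 8.13, 7.91 and 7.94 in trh null embryos. The groups did not overlap, and wild type replicate 2 stood well above the rest. Its difference of -0.69 (SE 0.21) had the largest size among the members whose difference was below 0 and did not pass (adjusted p = 0.0933). Without wild type replicate 2 it was -0.45 (adjusted p = 0.0190). The paralogs SdhAL, SdhBL and SdhCL had differences of 0.09, -0.18 and 0.06, and none passed. SdhCL had the lowest signal of complex II, between 4.52 and 4.73 on the 6 arrays.

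**Figure D3:**
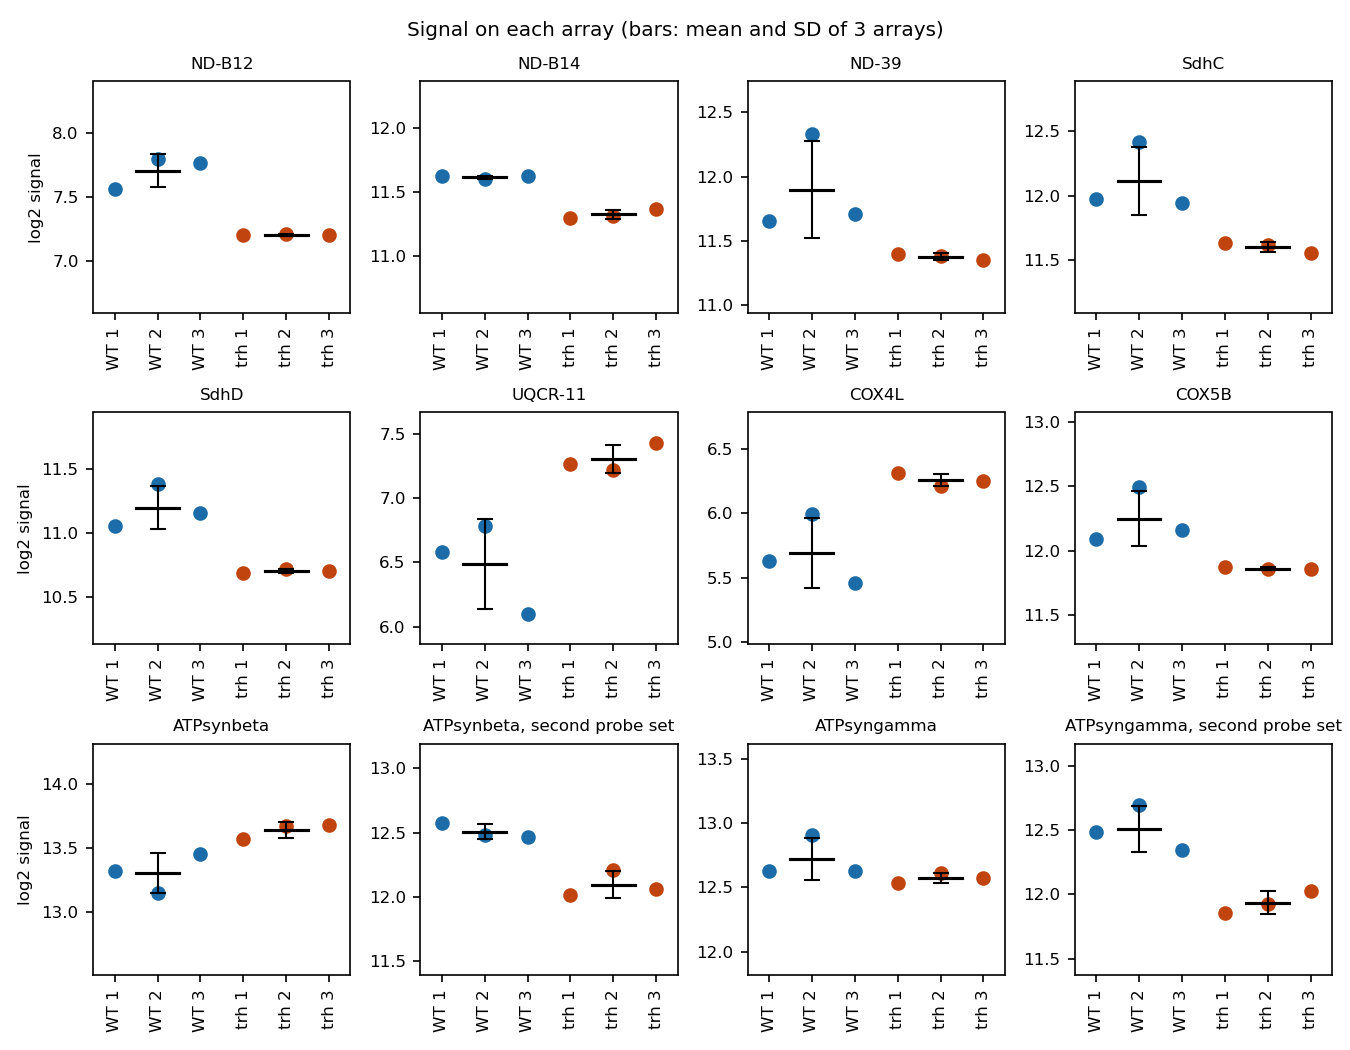
Log2 signal on each array for 10 genes, 2 of them with a further probe set. WT stands for wild type and trh for trh null, points are arrays, and bars are the mean and SD of 3 arrays. The vertical axes start above 0 and differ between panels. The trh null arrays lie below the wild type arrays for ND-B12, ND-B14, ND-39, SdhC, SdhD and COX5B and above them for UQCR-11 and COX4L, and the probe sets of ATPsynbeta point in opposite directions.

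Complex III, ubiquinol-cytochrome c reductase, had 4 subunits and 2 paralogs under the naming rule. UQCR-11 rose and the rest had small differences below 0. The median over the subunits was -0.09, and 0.01 without wild type replicate 2. UQCR-11, a small accessory subunit, had a log2 signal of 6.58, 6.78 and 6.10 in wild type and 7.27, 7.22 and 7.43 in trh null embryos. All trh null arrays were higher, and the wild type arrays were spread more widely, with replicate 3 the lowest. The wild type signals lay near the median of all probe sets, 6.21, and replicate 3 lay below it. UQCR-11 rose by 0.82 (SE 0.18, adjusted p = 0.0348), a 1.76-fold change, and by 0.96 without wild type replicate 2 (adjusted p = 0.00522). The call was lost with any single trh null array left out (0.111 to 0.142) and without wild type replicate 1 (0.0739). It was the only member with a called rise, and it had the largest difference of the 73 in either direction.

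UQCR-14, the accessory subunit with the highest signal in this complex, had 13.25, 13.59 and 13.26 in wild type and 13.24, 13.19 and 13.19 in trh null embryos. The difference of -0.16 did not pass (adjusted p = 0.414). UQCR-Q and UQCR-6.4 had differences of -0.11 and -0.08. Among the paralogs UQCR-14L had a difference of -0.18 (adjusted p = 0.421). The paralog of the gene that rose, UQCR-11L, had the lowest signal of complex III, between 4.98 and 5.37 on the 6 arrays, and a difference of -0.14.

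The naming rule leaves out subunits of complexes III to V that carry other symbols. Measured were blw, sun, RFeSP, Cyt-c1, ox, cype, levy and knon, a list that was not split into subunits and paralogs. Of these, 1 lay below the median signal of all probe sets. Of 8 such genes measured, 3 fell and none rose, against 7.31% and 6.79% of all genes, and their median difference was -0.40 (-0.28 without wild type replicate 2). These were ox and Cyt-c1 of complex III and sun of ATP synthase. With any single trh null array left out none of the 8 passed in limma. Leaving out wild type replicate 1 left 1 gene called, and leaving out wild type replicate 3 left 2. Without wild type replicate 2, 5 were lower and none higher, against 14.8% and 17.4% of all genes. The cytochrome c genes Cyt-c-p and Cyt-c-d were not analysed here.

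The accessory subunit ox had a log2 signal of 12.03, 12.64 and 12.10 in wild type and 11.43, 11.40 and 11.41 in trh null embryos. All trh null arrays were lower, and ox fell by 0.84 (SE 0.17, adjusted p = 0.0250), a 1.79-fold change. Cyt-c1, the haem subunit that passes electrons to cytochrome c, had 12.46, 12.80 and 12.42 in wild type and 12.07, 12.02 and 11.9997 in trh null embryos. There was no overlap, and Cyt-c1 fell by 0.53 (SE 0.12, adjusted p = 0.0366). The epsilon subunit of ATP synthase, sun, fell by 0.42 (SE 0.08, adjusted p = 0.0238). Within complex III the data therefore held called changes in opposite directions, with ox and Cyt-c1 down and UQCR-11 up.

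RFeSP, the Rieske iron-sulfur subunit at which complex III takes electrons from ubiquinol, gave opposite readings on its probe sets. On the brighter one the log2 signal was 11.60, 12.08 and 11.60 in wild type and 11.27, 11.35 and 11.28 in trh null embryos. These groups did not overlap, and the difference was -0.46 (SE 0.14, adjusted p = 0.0933; without wild type replicate 2 it was -0.30, adjusted p = 0.0206). On the dimmer one the log2 signal was 5.01, 5.17 and 5.34 in wild type and 8.91, 9.01 and 8.73 in trh null embryos. There the wild type arrays lay below the median signal of all probe sets and all trh null arrays were far above them. That probe set rose by 3.71 (SE 0.12, adjusted p = 7.74e-05), a 13.1-fold change, and passed with every single array left out (adjusted p 3.34e-05 to 0.00242). RFeSP was described at this length after its values were seen, and which transcripts each probe set reads was not analysed here.

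Complex IV, cytochrome c oxidase, had 7 subunits and 7 paralogs. In limma none of the 14 passed. At an unadjusted p of 0.05, 1 was higher and 1 lower, against 15.1% and 15.3% of all genes. The median difference was -0.07 over the subunits and -0.07 over the paralogs, and -0.11 and -0.02 without wild type replicate 2. Without wild type replicate 2, COX5B was lower and COX4L higher, against 14.8% and 17.4% of all genes.

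COX5B had a log2 signal of 12.09, 12.50 and 12.16 in wild type and 11.87, 11.86 and 11.85 in trh null embryos. No array overlapped with the other genotype, and the trh null arrays were nearly equal. Its difference was -0.39 (SE 0.12, adjusted p = 0.0908), and -0.26 without wild type replicate 2 (adjusted p = 0.0315). COX4L, a paralog of COX4, had 5.63, 5.99 and 5.46 in wild type and 6.31, 6.22 and 6.25 in trh null embryos. All trh null arrays were higher, at signals near the median of all probe sets. The difference of COX4L was 0.57 (SE 0.14, adjusted p = 0.0527), and 0.72 without wild type replicate 2 (adjusted p = 0.00182). COX4 itself had a difference of -0.14 (adjusted p = 0.251), so the estimates for the paralogous pair had opposite signs, and the difference between them was not tested.

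COX8, with the highest signal of complex IV, had 13.15, 13.37 and 13.18 in wild type and 13.18, 13.19 and 13.13 in trh null embryos. The groups overlapped, and the 95% interval of its difference ran from -0.28 to 0.14. COX7AL had the lowest signal, between 3.92 and 4.19 on the 6 arrays, and a difference of -0.07. COX7B was read by 3 probe sets that did not agree in sign. The brightest had a difference of 0.04 and a further bright one -0.26 (adjusted p = 0.257). The dimmest, at a log2 signal of 4.51 to 5.01, had a difference of 0.35, and none of them passed.

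Complex V, ATP synthase, had 10 subunits and 4 paralogs. In limma none of the 14 passed by the brightest probe set. At an unadjusted p of 0.05, 1 was higher and 2 lower, against 15.1% and 15.3% of all genes. The median difference of the subunits was -0.17, and -0.07 without wild type replicate 2. By the brightest probe set the 95% interval stayed within a 1.5-fold change in both directions for all 14. The intervals of the second probe sets of ATPsynbeta (-0.62 to -0.21) and ATPsyngamma (-0.84 to -0.30) reached beyond it.

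ATPsynbeta, the catalytic subunit of the F1 head, gave opposite readings on its probe sets. On the brighter one the log2 signal was 13.32, 13.15 and 13.45 in wild type and 13.57, 13.67 and 13.68 in trh null embryos. All trh null arrays were higher, and the difference of 0.33 did not pass (SE 0.10, adjusted p = 0.0871). On the other probe set of ATPsynbeta the log2 signal was 12.57, 12.49 and 12.47 in wild type and 12.02, 12.21 and 12.06 in trh null embryos. There all trh null arrays were lower, and that probe set fell by 0.41 (SE 0.08, adjusted p = 0.0282). This call was lost with any single trh null array left out (0.0642 to 0.130) and without wild type replicate 1 (0.0789) or 3 (0.0567), so no direction can be given for the gene.

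ATPsyngamma, the central stalk that turns inside the head, had differences of the same sign but different size. Its brighter probe set had 12.63, 12.91 and 12.63 in wild type and 12.53, 12.61 and 12.58 in trh null embryos, a difference of -0.15 (adjusted p = 0.404). Its other probe set had 12.48, 12.70 and 12.34 in wild type and 11.85, 11.93 and 12.03 in trh null embryos. The groups did not overlap on either, and the second probe set of ATPsyngamma fell by 0.57 (SE 0.11, adjusted p = 0.0244). Its call was lost with any single trh null array left out (0.0806 to 0.105) and without wild type replicate 1 (0.0622).

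ATPsynCF6, coupling factor 6 of the outer stalk, had a log2 signal of 12.58, 12.44 and 12.79 in wild type and 12.34, 12.28 and 12.25 in trh null embryos. The groups did not overlap, and here wild type replicate 2 was the lowest wild type array. Its difference was -0.31 (SE 0.11, adjusted p = 0.119), and -0.39 without that array (adjusted p = 0.0186). ATPsynF, with the highest signal of complex V, had 13.48, 13.87 and 13.53 in wild type and 13.45, 13.44 and 13.43 in trh null embryos. Its groups missed each other narrowly, and the difference of -0.19 did not pass (adjusted p = 0.358). ATPsynCF6L had the lowest signal, between 4.69 and 5.07, and a difference of -0.24 (adjusted p = 0.123).

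The paralogs as a class differed from the subunits in signal. Of the 21 paralogs 20 lay below the median signal of all probe sets, against 1 of the 51 subunits. In limma no paralog passed. At an unadjusted p of 0.05 there was 1 higher and 1 lower, against 15.1% and 15.3% of all genes. For 20 of the 21 the 95% interval stayed within a 1.5-fold change, although at such signals a change of the transcript is understated. The exception was COX4L.

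**Figure D4:**
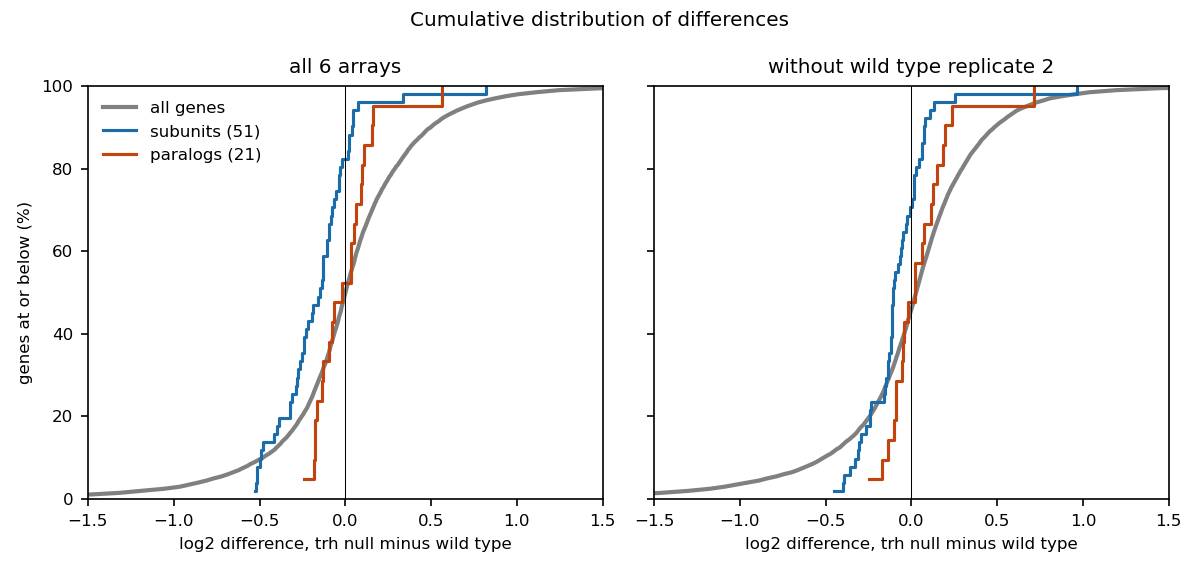
Share of genes (vertical axis, percent) at or below each log2 difference, trh null minus wild type, for all genes, the 51 subunits and the 21 paralogs. The left panel uses all 6 arrays and the right panel leaves out wild type replicate 2. The subunit curve lies left of that of all genes near 0, with medians of -0.15 and -0.11 in the 2 panels.

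Carriers move solutes through the inner membrane, and some of them move the substrates of ATP synthase. Of 9 carriers measured, 3 fell and none rose, against 7.31% of all genes that fell and 6.79% that rose. Without wild type replicate 2, 3 carriers were lower and 2 higher, against 14.8% and 17.4% of all genes. The 2 higher were the pyruvate carrier Mpc1 (0.29, adjusted p = 0.0282) and Ucp4A (0.47, adjusted p = 0.0339). Mpcp1, a phosphate carrier, had a log2 signal of 8.02, 8.04 and 7.996 in wild type and 7.41, 7.35 and 7.42 in trh null embryos. The arrays of each genotype lay close together, and Mpcp1 fell by 0.62 (SE 0.07, adjusted p = 0.00361). Its call held in all 14 alternative settings. The ADP/ATP exchanger sesB fell by 0.51 (SE 0.10, adjusted p = 0.0236), read by a probe set whose type can match several transcripts. Bmcp, a carrier related to uncoupling proteins, fell by 0.57 (SE 0.11, adjusted p = 0.0207). Bmcp lost its call with any single trh null array left out (0.0875 to 0.0932). The call of sesB was lost without trh null replicate 2 (0.110) or 3 (0.114) and without wild type replicate 1 (0.0526) or 3 (0.0581).

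The tricarboxylic acid cycle supplies complexes I and II. Of 14 genes of the cycle and of pyruvate dehydrogenase, 3 fell and none rose, against 7.31% and 6.79% of all genes, and the median difference was -0.16. When wild type replicate 2 was left out, 4 were lower and 2 higher, against 14.8% and 17.4% of all genes, with a median of -0.11. The genes added there were mAcon2 (-0.28), an aconitase, on the lower side and Pdk (0.54), the pyruvate dehydrogenase kinase, and ScsbetaG (0.49) on the higher side. A dimmer probe set of Pdk had 0.15 in that fit and did not pass (adjusted p = 0.380). Idh3b, a subunit of the NAD-dependent isocitrate dehydrogenase, had a log2 signal of 10.22, 10.80 and 10.36 in wild type and 8.20, 8.07 and 8.15 in trh null embryos. The groups were far apart, and Idh3b fell by 2.32 (SE 0.16, adjusted p = 0.000863), a 5.01-fold change. Idh3a and Idh3g, which encode the partner subunits of the same enzyme, had differences of 0.37 and 0.52 that did not pass (adjusted p = 0.227 and 0.217). CG5214 and Ogdh, which encode components of the oxoglutarate dehydrogenase complex, fell by 0.82 (SE 0.09, adjusted p = 0.00361) and 0.49 (SE 0.09, adjusted p = 0.0217). The calls of Idh3b and CG5214 held in all 14 alternative settings. That of Ogdh was lost with any single trh null array left out (0.0749 to 0.0886) and without wild type replicate 3 (0.0556).

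ScsbetaG, the GDP-forming beta subunit of succinyl-CoA synthetase, had probe sets that passed in opposite directions, and it was picked out after its values were seen. One of its probe sets had a log2 signal of 10.66, 11.37 and 10.61 in wild type and 9.85, 9.86 and 9.77 in trh null embryos and fell by 1.06 (SE 0.21, adjusted p = 0.0242). Another probe set of ScsbetaG had 5.65, 6.08 and 5.38 in wild type and 7.53, 7.70 and 7.43 in trh null embryos and rose by 1.85 (SE 0.19, adjusted p = 0.00265). The groups did not overlap on either, while on the brightest probe set they did and the difference was 0.22 (adjusted p = 0.594).

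Glycolysis, which yields ATP without oxygen, was measured by 9 genes. Of these 7 fell and none rose, against 7.31% and 6.79% of all genes. The median difference was -0.60, compared with -0.15 for the respiratory chain subunits. Without wild type replicate 2, 8 were lower and none higher, against 14.8% and 17.4% of all genes. The medians were then -0.54 for glycolysis and -0.11 for the subunits. Gapdh1, Tpi and Pgk, enzymes of the middle of the pathway, fell by 1.36, 1.11 and 1.09 on the log2 scale. With any single trh null array left out 2 of the 9 genes were lower. Whether the lists differ from each other was not tested.

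**Figure D5:**
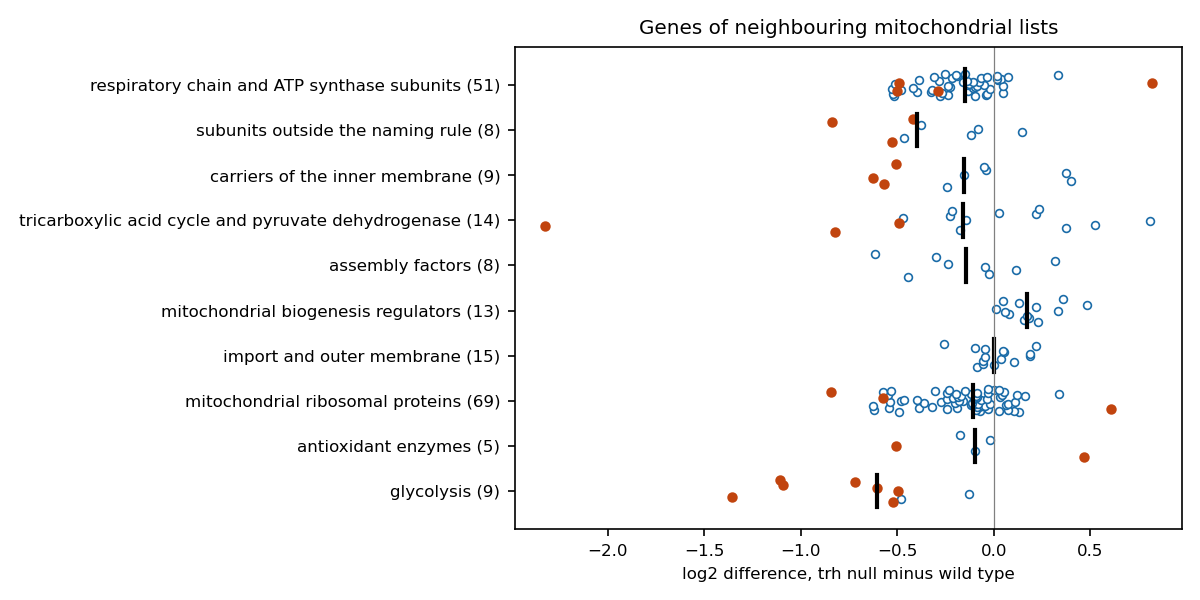
Log2 difference, trh null minus wild type, of each gene in the respiratory chain subunits and 9 neighbouring lists. The number of genes is in brackets, filled points passed an adjusted p of 0.05, and bars are medians. Glycolysis has the lowest median, -0.60, and Idh3b lies alone at -2.32.

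Other measures moved with genotype too, and their part in the differences above was not tested. Of 11 muscle markers 6 fell and none rose, against 7.31% and 6.79% of all genes. Without wild type replicate 2, 10 were lower and 1 (sls) higher, against 14.8% and 17.4% of all genes. The median deviation of the muscle markers per array was 0.01 to 0.93 in wild type and -0.62 to -0.26 in trh null embryos (log2). Wild type replicate 2 was the lowest wild type array in that measure, although it was the highest for most respiratory chain subunits. Of 9 early embryo markers 5 rose and none fell, against 6.79% and 7.31% of all genes. Without wild type replicate 2, 5 were higher and 1 (hry) lower, against 17.4% and 14.8% of all genes. The median deviations of the early embryo markers were -0.66 to -0.05 in wild type and 0.26 to 0.38 in trh null embryos. Of 6 neuron markers none passed in limma, and 3 were higher at an unadjusted p of 0.05, against 15.1% of all genes. In the fit without wild type replicate 2, brp, elav and futsch were higher and Syn was lower, against 17.4% and 14.8% of all genes. The actin control probe sets, which report how well RNA far from the 3' end was labelled, gave 3' signals above the 5' signals by 1.30 to 1.46 (log2) on the wild type arrays and by 0.74 to 0.80 on the trh null arrays.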

How the data were processed

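Per the submitters' processing notes the authors used RMA and Partek, without versions. The deposited values were taken as log2 signals: the base is inferred from their range and from RMA. RMA as generally run makes the quantiles of all arrays equal, so a change shared by all transcripts can be hidden. The table held 18952 probe sets, and 183 controls were left out. The platform annotation names 1 gene for 13646 of the other probe sets, and 13543 of these matched RefSeq's table (Release 6 plus ISO1 MT), which was used for names only. Genotype came from the labels, and all 6 arrays entered the fit.

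The fit used limma 3.58.1 (R 4.3.3) with genotype as its term, with Benjamini-Hochberg adjustment over 18769 probe sets and a threshold of 0.05. "Rose" and "fell" refer to that threshold. Data were also simulated with 200 of 18769 probe sets changed. There the trh null against wild type fit found 0% of changes of 0.5 on the log2 scale, 73.5% of 1 and 93% of 2. In the real data 2219 probe sets passed, and the adjustment is less strict where more probe sets change. These shares therefore do not carry over to the data, in which ND-B12 (-0.50) and ND-B14 (-0.29) passed. The number of arrays, 3 per genotype, limits the precision. Tables were joined with pandas 2.3.3 (Python 3.11.15) and figures drawn with matplotlib 3.10.9.

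The members and lists were chosen with earlier results of these data known. The named genes are, per complex, those that passed, the 2 largest differences that did not, the brightest and the dimmest, and any whose probe sets disagree in direction. From each list up to 3 that passed are named, or else the largest. Other member and list genes were named after their values were seen. ND-MNLL counts as a subunit although its symbol ends in L. From the lists 7 symbols were dropped after values were seen, since they named other genes or did not belong. Alternatives were another prior, array weights, median centring, quantile and cyclic loess normalization, dropping the 40% of probe sets with the lowest signal, averaging the probe sets of a gene, blocking on replicate number and leaving out each array.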

Additional observations from a re-analysis of the deposited data

How the results depend on the processing

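No estimate of a member that passed turned its sign in 56 alternatives, but 27 of these lost the call and 29 kept it. The count of members called, 4 as reported, was 16 with array weights, 8 with cyclic loess, 2 with quantile normalization and 0 to 15 with 1 array left out. Complex I, with 2, gave 7 with array weights, 1 with median centring, quantile normalization, the trend and robust prior or without the 40% dimmest, and 0 to 8 with 1 array left out. Complex II, with 1, gave 3 with array weights, 2 with cyclic loess, 0 with the trend and robust prior and 0 to 3 with 1 array left out. Complex III, with 1, gave 0 with quantile normalization and 0 to 1 with 1 array left out. Complex IV, with 0, gave 2 with array weights, 2 with cyclic loess, 1 with the trend and robust prior and 0 to 2 with 1 array left out. Complex V, with 0, gave 3 with array weights and 0 to 1 with 1 array left out. In each of these ranges the highest count came without wild type replicate 2, except for complex III, which held at 1 there. Over all probe sets the 2219 calls became 6003 with array weights and 704 to 5001 with 1 array left out. Array weights gave wild type replicate 2 a weight of 0.136. With 1 trh null array left out the fit has 5 arrays, and no member passed. The members' median difference of -0.13 moved to between -0.15 and -0.07. RFeSP, at -0.46 by its brighter probe set, was 1.62 by the mean over its probe sets, which takes in the one that rose. Same-numbered arrays of the genotypes did not deviate together (correlations of -0.375, -0.057 and -0.045), and with the replicate number as a block 726 probe sets and 0 members, thus 0 in complexes I, II and III, passed. Low signal limits the paralogs, 20 of 21 of which lie below the median signal.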

Other observations

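Mitochondrial ribosomal proteins, which translate the mitochondrially encoded subunits of the respiratory chain, were measured by 69 genes. Of these 2 fell and 1 rose in trh null embryos, against 7.31% and 6.79% of all genes. Without wild type replicate 2, 8 were lower and 4 higher, against 14.8% and 17.4% of all genes. The median difference was -0.11 with all arrays and 0.04 without wild type replicate 2. The number of these genes with a difference below 0 went from 53 to 28, and over all 11981 genes from 5975 to 5503. Wild type replicate 2 was the highest of all 6 arrays for 61 of the 69 genes, compared with 35.2% of all genes. The small subunit protein mRpS31 fell by 0.84 (SE 0.20, adjusted p = 0.0430), from 11.09, 11.61 and 10.85 in wild type to 10.30, 10.24 and 10.48 in trh null embryos. The large subunit protein mRpL54 fell by 0.58 (SE 0.14, adjusted p = 0.0463). Both calls were lost with any single trh null array left out (0.119 to 0.161) and without wild type replicate 1 (0.0880 and 0.0809). The large subunit protein mRpL18 rose by 0.61 (SE 0.08, adjusted p = 0.00605), from 9.93, 9.98 and 9.82 in wild type to 10.49, 10.51 and 10.55 in trh null embryos. Its call held with every single array left out.

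Regulators of mitochondrial number, shape and DNA had estimates on the other side of 0 from most subunits. All 13 measured had a difference above 0, from 0.01 to 0.48, with a median of 0.17 (0.16 without wild type replicate 2). In limma none passed, and 2 were higher at an unadjusted p of 0.05 with none lower, against 15.1% and 15.3% of all genes. Without wild type replicate 2, Drp1 (0.33, adjusted p = 0.0271), which divides mitochondria, and the transcription factor Ets97D (0.44, adjusted p = 0.0111) were higher, against 17.4% of all genes. The largest, for the RNA-binding protein clu, was 0.48 (adjusted p = 0.144). Of 15 genes of protein import and the outer membrane none passed. At an unadjusted p of 0.05, 2 were higher and 1 lower, against 15.1% and 15.3% of all genes. Their largest difference was that of porin, the outer membrane channel, at -0.26 (adjusted p = 0.187). Without wild type replicate 2, 4 of the 15 were higher and none lower, against 17.4% and 14.8% of all genes. They were Phb2, Tim8, Tim9a and mge with differences of 0.24 to 0.32, and the median of the 15 went from 0.00 to 0.08. Of 8 assembly factors none passed, and 1 was higher and 1 lower at an unadjusted p of 0.05, against the same shares. Surf1, which helps to assemble complex IV, had a difference of -0.62 (adjusted p = 0.118), and -0.37 (adjusted p = 0.0161) without wild type replicate 2. In that fit CIA30 (0.27, adjusted p = 0.0354) and Nubpl (0.31, adjusted p = 0.0350) were higher. A dimmer probe set of Nubpl had the opposite sign there, at -0.10 (adjusted p = 0.493). Of all genes 14.8% were lower and 17.4% higher there. The genes named here for the fit without that array were chosen after their values were seen.

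Of 5 antioxidant enzymes 1 rose and 1 fell, against 6.79% and 7.31% of all genes, while Gtpx, Sod2 and Trx2 had differences between -0.17 and -0.02 that did not pass. Catalase (Cat), which works mostly in peroxisomes, had a log2 signal of 9.99, 10.09 and 10.04 in wild type and 10.47, 10.54 and 10.52 in trh null embryos and rose by 0.47 (SE 0.07, adjusted p = 0.0110). The mitochondrial peroxiredoxin Prx3 had 11.11, 11.21 and 11.34 in wild type and 10.83, 10.69 and 10.62 in trh null embryos and fell by 0.51 (SE 0.10, adjusted p = 0.0237). Neither gene's groups overlapped. Both calls were lost with any single trh null array left out (0.0523 to 0.114), and that of Prx3 also without wild type replicate 3 (0.0563).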
